A study of Mus musculus with 10 samples.

Results

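Nuclear genes named for subunits of respiratory chain complexes II, III and IV, ATP synthase (complex V) and cytochrome c were examined, 47 in all. The tissue was brown adipose tissue of C57BL/6J wild-type mice. Membership went by symbol, and not every gene need encode a subunit. A rule on symbols took every gene named Sdha to Sdhd, Uqcr, Cox4 to Cox8 or Atp5, together with Cyc1 and Cycs. Pseudogene symbols were to be dropped, and earlier results of these data were known when the genes were chosen. The rule found 47 of the 32889 genes in the expression table: 4 of complex II, 9 of complex III (Cyc1 included), cytochrome c itself (Cycs), 16 of complex IV and 17 of complex V. All 47 matched a RefSeq identifier as protein-coding genes, lay on 19 chromosomes and passed the filter on low counts. Total RNA of the tissue was sequenced in 10 libraries: 4 control libraries (ND) from mice on a regular chow diet, 3 obesity-prone libraries (HFDhigh) and 3 obesity-resistant libraries (HFDlow), both from mice on a high-fat diet. The labels give neither age, sex nor time on the diet, nor the weight limits that parted prone from resistant mice, and do not say that each library is a separate animal.

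Complexes II and III pass electrons from succinate and ubiquinol to cytochrome c, complex IV passes them on to oxygen, and complex V uses the proton gradient that results to make ATP. In brown fat the uncoupling protein Ucp1 lets protons back without ATP synthesis, so the tissue is known for a dense respiratory chain beside little ATP synthase. Complex IV also has tissue isoforms. Cox6a2, Cox7a1 and Cox8b are the forms best known from heart and skeletal muscle, the latter 2 being also abundant in brown fat, while Cox6a1, Cox7a2 and Cox8a are the widespread forms. Cox4i2 is known from lung and low oxygen, and Cox6b2 from testis.

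Total counts lay between 35583997 and 37327770 per library. All 12 brown adipocyte markers examined were detected, but obesity-prone replicate 3 stood apart from the other 9 libraries. It had 2882 CPM (counts scaled to library size, with TMM factors) of Ucp1 against 6240 to 10271 elsewhere, and a white adipocyte marker sum of 857 CPM against 38.1 to 173. Its erythrocyte sum was 22269 CPM; control replicate 4 followed with 6174, and the other 8 libraries held 710 to 4767. In this bulk tissue, fewer cells of a type and less RNA per cell cannot be told apart. Results are therefore given with and without obesity-prone replicate 3.

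To show the promoters that these genes carry, windows of 300 bases around the start site (250 before, 50 after; RefSeq, GRCm38.p6) were searched on both strands for the letters of 5 motifs. Of the 47 genes, 36 had 39 windows. GCGCATGC, the core of the site of NRF1, a regulator of respiratory chain genes, was in 20.5% of these windows and in 2.71% of all 32851 windows. CCGGAAG, bound by ETS factors such as GABP, was in 30.8% against 8.86% of all. For AAGGTCA, bound by estrogen-related receptors, the shares were 12.8% and 4.72%, and for AAGATGGC, bound by YY1, 7.69% and 2.75%. TATAAA was rarer than in all windows, with 5.13% against 13.6%. The median GC content was 56.7% in the windows of these genes and 52.7% in all. These shares describe letters only; motif matches may overlap, and they are not evidence of binding.

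The stretches below run from 100 bases before to 30 bases after the start site, written 5′ to 3′ on the gene's strand with motif matches in capitals. They are shown because Atp5k and Cycs carry NRF1 letters, and because the widespread and tissue isoforms Cox8a and Cox8b, and Cox7a2 and Cox7a1, can be compared.
Atp5k, chr5:108434370-108434499, minus strand: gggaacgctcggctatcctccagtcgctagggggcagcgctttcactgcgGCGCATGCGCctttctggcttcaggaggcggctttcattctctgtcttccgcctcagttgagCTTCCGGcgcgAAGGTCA
Cycs, chr6:50566540-50566669, minus strand: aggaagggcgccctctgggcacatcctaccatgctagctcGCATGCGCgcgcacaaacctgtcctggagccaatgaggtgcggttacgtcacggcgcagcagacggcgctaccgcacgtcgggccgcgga
Cox8a, chr19:7217587-7217716, minus strand: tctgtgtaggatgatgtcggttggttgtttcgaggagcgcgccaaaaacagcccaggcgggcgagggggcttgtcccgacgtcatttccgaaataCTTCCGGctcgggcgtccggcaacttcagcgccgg
Cox8b, chr7:140900417-140900546, minus strand: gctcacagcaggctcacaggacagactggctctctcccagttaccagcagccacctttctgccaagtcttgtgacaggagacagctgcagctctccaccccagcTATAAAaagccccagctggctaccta
Cox7a1, chr7:30184071-30184200, plus strand: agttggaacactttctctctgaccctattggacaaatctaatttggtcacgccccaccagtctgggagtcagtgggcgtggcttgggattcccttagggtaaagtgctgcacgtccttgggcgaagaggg
Cox7a2, chr9:79759824-79759953, minus strand: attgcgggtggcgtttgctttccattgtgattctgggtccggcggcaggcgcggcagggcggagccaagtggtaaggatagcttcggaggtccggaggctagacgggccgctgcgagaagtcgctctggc

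In Atp5k, which encodes the small e subunit of ATP synthase, 2 overlapping NRF1 matches began 50 and 48 bases before the start site, and an ETS and an ERR match began at bases 13 and 24 of the transcript. Cycs had 1 NRF1 match, 60 bases before the start. Cox8a had an ETS match that began 5 bases before the start and another at base 33, outside the stretch shown. Cox8b had none of the NRF1, ETS, ERR or YY1 letters and held TATAAA at base 5, the only match of a complex IV gene to those letters. The windows of Cox7a1 and Cox7a2 held none of the 5 motifs, which says only that these letters are not there. In all, 8 of the 36 genes held the NRF1 letters (Atp5g2, Atp5k, Atp5l, Cox6a1, Cycs, Sdhb, Uqcr11 and Uqcrc1).

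**Figure D1:**
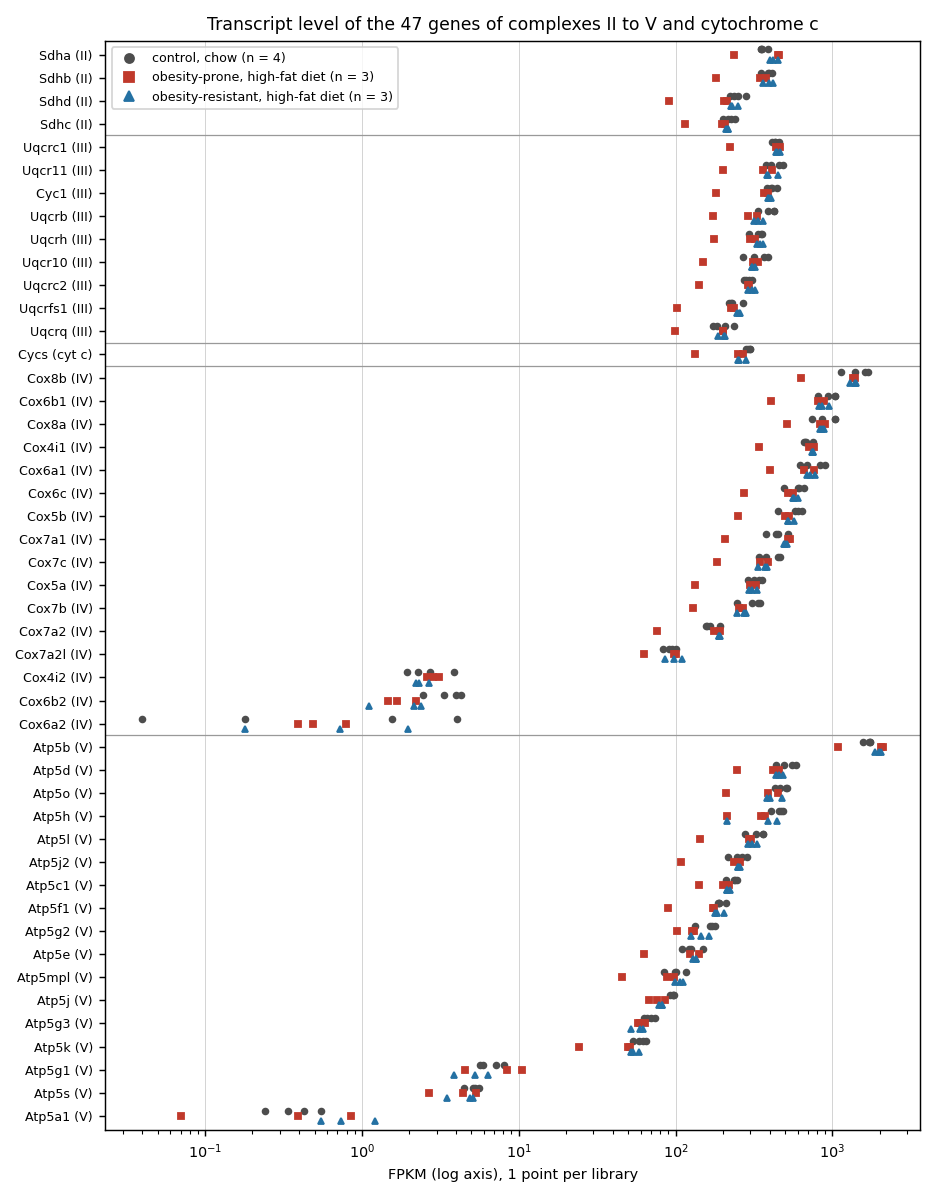
FPKM of each of the 47 genes in each library on a log axis, ordered by median within each complex (in parentheses). Atp5b and Cox8b lie at the right, and 1 obesity-prone library, replicate 3, lies to the left of the other points for most genes.

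Levels of different genes were compared in FPKM, the authors' value per transcript length. Atp5b, the catalytic beta subunit of ATP synthase (gene 11947, GRCm38.p6 chromosome 10, 128083307 to 128090388), had the highest level of the 47, with a median of 1806 FPKM over the 10 libraries and a range of 1085 to 2113. Cox8b, the muscle and brown fat form of subunit 8 of complex IV (gene 12869, chromosome 7, 140898942 to 140900446), came next with a median of 1384 FPKM (630 to 1689), and the 2 ranges overlapped. Cox6b1 (870 FPKM), Cox8a (854), Cox4i1 (724) and Cox6a1 (705) followed, all of complex IV. The ranges of these 4 genes overlapped one another, so their order is not fixed by these libraries.

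Complex II and complex III levels were more even. Medians ran from 212 FPKM for Sdhc, a membrane anchor of succinate dehydrogenase, to 394 for Sdha, its flavoprotein. In complex III they ran from 201 FPKM for Uqcrq to 436 for Uqcrc1, a core protein, with 393 for Cyc1 (cytochrome c1) and 233 for Uqcrfs1, the Rieske iron-sulfur protein. Cytochrome c, the carrier between complexes III and IV, had a median of 275 FPKM. The lowest of these medians and the highest differed by less than those of complex IV or complex V.

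ATP synthase subunits also differed widely in level. Against 1806 FPKM of Atp5b, the gamma subunit Atp5c1 had a median of 216, the delta subunit Atp5d 458 and the epsilon subunit Atp5e 128. Subunit c, the proton-carrying ring, is encoded by 3 genes. Their medians were 139 FPKM for Atp5g2, 62.4 for Atp5g3 and 6.17 for Atp5g1, and these ranges (102 to 179, 52.1 to 74.2 and 3.87 to 10.5) did not overlap. In brown fat, Atp5g1 is the subunit c gene known from other work to limit the amount of ATP synthase. Atp5s, which RefSeq names Dmac2l and which was counted with complex V by its symbol, also lay low at 5.01 FPKM. Atp5a1, the alpha subunit that pairs with the beta subunit, had only 0.49 FPKM (0.07 to 1.21), so this entry is not taken as the level of that subunit here. These gene families have processed pseudogenes, and expected counts may be shared between copies.

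The tissue isoforms of complex IV fell into 2 kinds. Cox7a1 and Cox8b exceeded their widespread partners in all 10 libraries, whereas Cox4i2, Cox6a2 and Cox6b2 lay far below theirs. Cox7a1 (gene 12865, chromosome 7, 30184171 to 30186030) had 434, 450, 519 and 375 FPKM in control replicates 1 to 4, 537, 525 and 207 in obesity-prone replicates 1 to 3, while obesity-resistant replicates 1 to 3 had 488, 500 and 512. Its partner Cox7a2 (gene 12866, chromosome 9, 79755241 to 79771422) had 165, 159, 191 and 157 FPKM in the control group, 175, 193 and 75.7 in obesity-prone libraries and 191, 189 and 189 in obesity-resistant ones. Both genes were lowest in obesity-prone replicate 3, and their ratio was not: Cox7a1 over Cox7a2 was 2.62, 2.83, 2.71 and 2.39 in control, 3.07, 2.72 and 2.74 in the obesity-prone group and 2.55, 2.65 and 2.71 in the obesity-resistant group. The groups overlapped, and an exact permutation test of the log2 ratio over the 3 groups gave p = 0.311 (4200 assignments, smallest possible p 0.000476; 0.518 after Benjamini-Hochberg adjustment over 5 isoform pairs).

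Cox8b had 1604, 1388, 1689 and 1139 FPKM in the control group, 1347, 1385 and 630 in obesity-prone libraries and 1416, 1296 and 1383 in obesity-resistant ones. Cox8a (gene 12868, chromosome 19, 7215158 to 7217616) had 1043, 853, 1038 and 741 FPKM in control, 832, 891 and 515 in the obesity-prone group and 829, 855 and 883 in the obesity-resistant group. The ratio of Cox8a to Cox8b was 0.65, 0.61, 0.61 and 0.65 in control and 0.59, 0.66 and 0.64 in obesity-resistant libraries, and 0.62, 0.64 and 0.82 in obesity-prone libraries. Obesity-prone replicate 3 was thus the highest of the 10, and the exact permutation test over the groups gave p = 0.496 (adjusted 0.620).

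**Figure D2:**
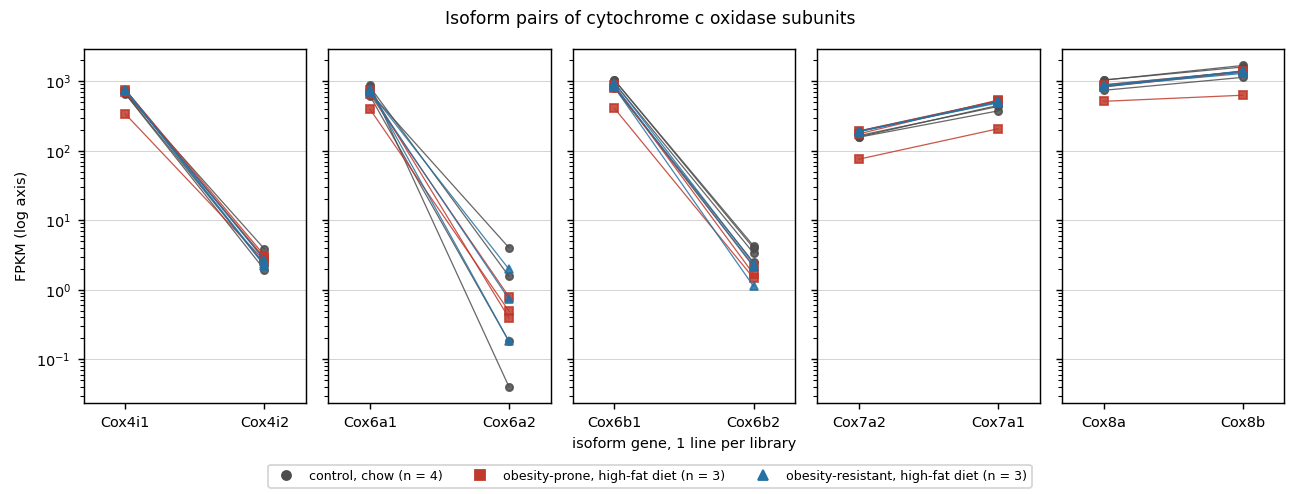
FPKM (log axis) of the 5 pairs of complex IV isoform genes, with 1 line per library. Cox7a1 and Cox8b lie above Cox7a2 and Cox8a in all 10 libraries, and Cox4i2, Cox6a2 and Cox6b2 lie below their partners.

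The 3 scarce isoforms had medians of 2.65 (Cox4i2), 2.30 (Cox6b2) and 0.61 FPKM (Cox6a2). Cox6a2, the heart and muscle form, varied most within groups, at 0.04, 4.02, 1.56 and 0.18 FPKM in the control group, 0.79, 0.39 and 0.49 in obesity-prone libraries and 0.18, 0.73 and 1.97 in obesity-resistant ones. The summed level of 21 skeletal muscle markers was 50.2, 1014, 500.3 and 30.4 CPM in control, 73.1, 31.3 and 101 in the obesity-prone group and 45.4, 265 and 842 in the obesity-resistant group. The 3 libraries highest in Cox6a2 were the 3 highest in the muscle markers. The ratio of Cox6a1 to Cox6a2 gave p = 0.931 by the exact permutation test, and that of Cox4i1 to Cox4i2 p = 0.18 (adjusted 0.45).

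The ratio of Cox6b1 to Cox6b2 was 244, 280, 262 and 328 in the control group, 365, 524 and 278 in obesity-prone libraries and 730, 401 and 401 in obesity-resistant ones. All obesity-resistant libraries lay above the control libraries, and 1 obesity-prone library lay among them. The exact permutation test gave p = 0.0738, adjusted 0.369, so the difference did not pass, and Cox6b2 itself rested on 0.528 to 2.07 CPM.

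Obesity-prone and control libraries were compared to see how the respiratory chain genes differ in mice labelled prone to obesity on this diet. Most of the 47 genes had lower values in obesity-prone libraries, but none passed the test. In edgeR, fitted over all genes and libraries, 43 had a log2 fold change below 0 and 4 above, with a median of -0.41 against 0.0047 over all 19676 genes tested. No gene had a Benjamini-Hochberg adjusted p below 0.05, where 3.29% of all genes did so as lower and 3.71% as higher. At an unadjusted p below 0.05 there were 15 genes, all lower, against 13.2% of all genes lower. The medians by complex were alike, at -0.42 for complex II, -0.41 for complex III, -0.45 for complex IV and -0.41 for complex V. Of the 15 genes, 10 were of complex V.

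The lowest adjusted p values were 0.060 for Atp5g2 and 0.061 for Atp5j, coupling factor 6 of ATP synthase. Atp5g2 had 107, 106, 116 and 78.9 CPM in control libraries and 74.4, 80.4 and 59.6 in obesity-prone ones, so that control replicate 4 lay among the obesity-prone values. For Atp5j the control libraries had 58.5, 59.6, 64.5 and 54.1 CPM and the obesity-prone libraries 50.4, 47.5 and 35.6, with no overlap. In obesity-resistant libraries Atp5j had 52.2, 48.0 and 48.3 CPM, also below every control library. It was the only one of the 47 genes that lay below all control libraries in the 5 high-fat diet libraries other than obesity-prone replicate 3, against 5.62% of all genes.

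The 3 lowest fold changes belonged to Cox6a2, Cox6b2 and Uqcrb. Cox6b2 had 2.07, 1.77, 1.91 and 1.10 CPM in control and 0.954, 0.843 and 0.658 in obesity-prone libraries, a log2 fold change of -1.06 ± 0.31 (SE; edgeR adjusted p = 0.062). Uqcrb, a small subunit of complex III, had 201, 188, 207 and 153 CPM in control and 147, 135 and 76.8 in obesity-prone libraries, a log2 fold change of -0.65 ± 0.20 (edgeR adjusted p = 0.072). Neither gene overlapped between the groups. Cox6a2, with its spread above, had a log2 fold change of -1.46 ± 1.15 and reversed to 0.40 when the muscle score was a covariate. In all, 8 genes did not overlap and were lower (Atp5f1, Atp5h, Atp5j, Atp5k, Cox6b2, Cycs, Sdhd and Uqcrb), against 10.6% of all genes, and none was higher, against 9.66%.

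At the other end stood Atp5g1 (log2 fold change 0.14), Atp5a1 (0.08) and Sdha (0.01), all within 1 SE of 0. Sdha (gene 66945, chromosome 13, 74322255 to 74350240) had 1021, 1038, 1158 and 956 CPM in control and 1211, 1299 and 638 in obesity-prone libraries. Atp5b had 2973, 3334, 3388 and 3095 CPM in control and 3741, 3781 and 1915 in obesity-prone libraries. In both genes obesity-prone replicates 1 and 2 lay above all control libraries and replicate 3 far below them. Atp5g1 ran the other way, with 4.70, 5.82, 4.67 and 6.10 CPM in control and 6.29, 3.51 and 7.76 in obesity-prone libraries, the highest value of the 10 being in replicate 3.

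**Figure D3:**
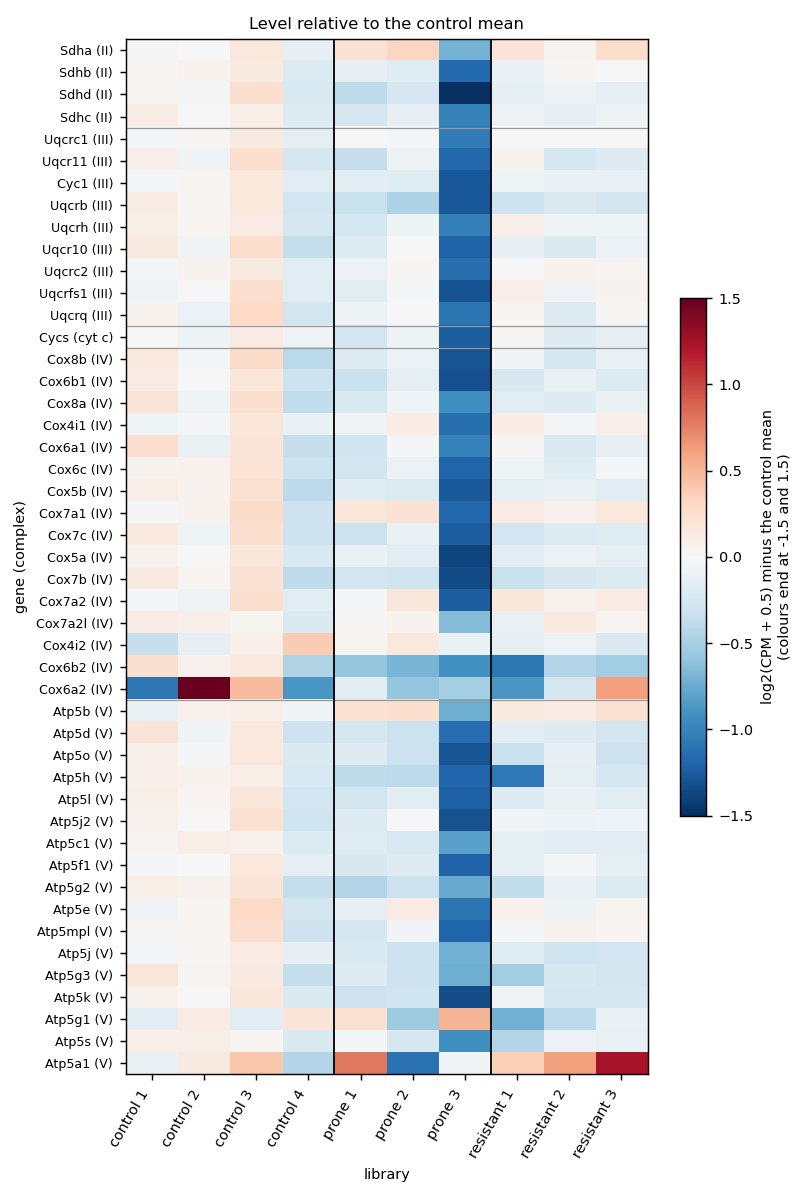
Level of each gene in each library as log2(CPM + 0.5) minus the mean of the 4 control libraries, from blue (lower) to red (higher), with colours ending at -1.5 and 1.5. The column of obesity-prone replicate 3 is blue for most of the 47 genes, and that of control replicate 4 is paler blue.

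Obesity-prone replicate 3 carried much of this comparison. It was the lowest of the 10 libraries for 42 of the 47 genes, against 22.6% of all genes, and below 2/3 of the mean of the other 9 for 44 of them, against 14.9%. These genes held 0.755% of its counts, against 1.32% to 1.54% in the other libraries. Apart from Cox4i2 (a ratio of 0.925) and Atp5g1 (1.63), the members had between 0.369 (Sdhd) and 0.675 (Atp5a1) of the mean of the other 9 libraries. Sdhd, a membrane anchor of complex II, had 319, 310, 372 and 269 CPM in control, 243, 266 and 109 in the obesity-prone group and 285, 298 and 284 in the obesity-resistant group. Mean log2 deviations from the 10-library mean in that library were -0.97 for complex II, -1.01 for complex III, -0.89 for complex IV and -0.74 for complex V, beside -0.92 for 38 complex I genes. Control replicate 4 was the lowest of the 4 control libraries for 42 genes, against 32.1% of all genes.

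Without obesity-prone replicate 3 the median log2 fold change was -0.18, 39 genes were below 0 and 8 above, and again none passed in edgeR (background 2.67%). At an unadjusted p below 0.05 there were 10, 8 of them lower, against 11.3% of all genes lower. Cox7a1 then had a log2 fold change of 0.18 in place of -0.15 ± 0.28, and Cox7a2 0.07 in place of -0.25 ± 0.26. Cox8a was at -0.16 in place of -0.38 ± 0.21 and Cox8b at -0.16 in place of -0.45 ± 0.26. With all libraries their edgeR adjusted p values were 0.769, 0.559, 0.260 and 0.284. The direction of the Cox7a pair thus depended on 1 library, and that of the Cox8 pair did not.

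Without both obesity-prone replicate 3 and control replicate 4, edgeR called 12 genes lower (background 6.39% lower) and none higher, with a median of -0.26. They were Atp5c1, Atp5d, Atp5g2, Atp5g3, Atp5j, Atp5k, Atp5l, Cox5b, Cox6b1, Cox7b, Sdhd and Uqcrb, of which 7 encode ATP synthase subunits and 3 complex IV subunits. Without control replicate 4 alone it called 5 (Atp5g2, Atp5g3, Atp5j, Cox6b2 and Uqcrb; background 6.98% lower), and without obesity-prone replicate 2 Atp5g2 (3.91%), which was also the 1 gene called with the replicate number as a block (3.86%). DESeq2 called Atp5g2, Atp5j, Cox6b2 and Uqcrb lower with all 10 libraries (7.53%), and limma on log2 FPKM called none. The count of changed genes therefore depended on which libraries entered. Control replicate 4 was the lowest control library for 42 of the 47 genes, so leaving it out raises their control means. Calls made without it are not separate support for a lower level.

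**Figure D4:**
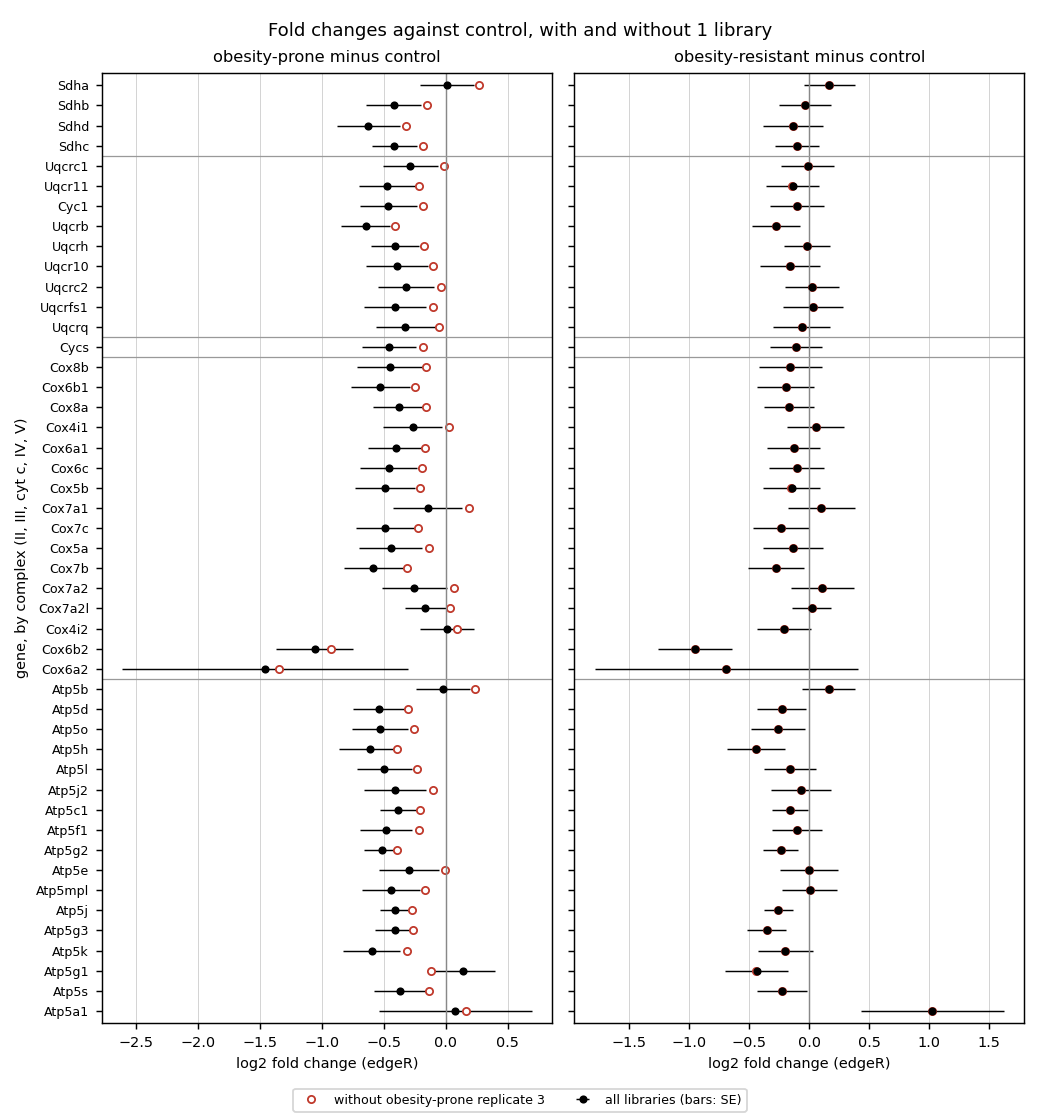
Log2 fold changes of the 47 genes in obesity-prone and obesity-resistant against control libraries (edgeR), with all libraries (filled, bars show SE) and without obesity-prone replicate 3 (open). In the left panel most open points lie closer to 0 than the filled ones; in the right panel they coincide.

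The same control libraries were then set against those of mice labelled resistant to obesity. Values lay closer to control and none of the 47 genes passed in edgeR, where 0.142% of all genes did. There were 36 log2 fold changes below 0 and 11 above, with a median of -0.14 against -0.0061 over all genes. As an alternative, the replicate number was used as a block, since same-numbered libraries correlated weakly in these groups. The median was then -0.22 and again no gene passed (background 1.94%). DESeq2 and limma on log2 FPKM called none either. The medians by complex were -0.07 for complex II, -0.06 for complex III, -0.15 for complex IV and -0.20 for complex V. Only Cox6b2 had an unadjusted p below 0.05, against 18.0% of all genes in either direction.

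Cox6b2 had 0.528, 1.10 and 1.01 CPM in obesity-resistant libraries, a log2 fold change of -0.95 ± 0.31 from control (edgeR adjusted p = 0.154). Its control range reached down to 1.10 CPM in replicate 4, so the groups overlapped. Cox6a2 was at -0.69 ± 1.10. Atp5h, a stalk subunit of ATP synthase, was at -0.44 ± 0.24 (edgeR adjusted p = 0.368). Its obesity-resistant values of 122, 235 and 216 CPM put 1 library far below the other 2, and control had 272, 267, 277 and 221.

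The highest fold changes were those of Atp5a1 (1.02 ± 0.60, on 0.562 to 2.88 CPM), Sdha (0.17 ± 0.22) and Atp5b (0.16 ± 0.22). Atp5j alone was lower with no overlap (9.71% of all genes). Atp5b had 3514, 3490 and 3744 CPM in obesity-resistant libraries, all above the 4 control libraries, and was the only one of the 47 genes to be higher with no overlap (10.5% of all genes). Sdha had 1193, 1075 and 1250 CPM there, which overlapped control. Cox7a1 was at 0.10 ± 0.28, Cox7a2 at 0.11 ± 0.26, Cox8a at -0.17 ± 0.21 and Cox8b at -0.16 ± 0.26, with edgeR adjusted p values from 0.715 to 0.887. None of the 4 isoform genes differed from control by more than its standard error.

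Without obesity-prone replicate 3 and control replicate 4, edgeR called 8 genes lower (Atp5d, Atp5g2, Atp5g3, Atp5j, Atp5o, Cox6b2, Cox7b and Uqcrb; background 6.04% lower), with a median of -0.20. Obesity-prone replicate 3 is in neither group compared here, and control replicate 4 was the lowest control library for 42 of the 47 genes. Leaving out any single library gave no call. The same control libraries stand in both comparisons with control. Atp5g3 had 109, 99.4, 106 and 75.3 CPM in the control group, 84.3, 78.0 and 57.7 in obesity-prone libraries and 66.9, 81.9 and 79.8 in obesity-resistant ones. Control replicate 4, the lowest control library for this gene, lay among the high-fat diet values.

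Obesity-prone and obesity-resistant mice ate the same diet, and their direct comparison gave lower values in obesity-prone libraries for 45 of the 47 genes, with a median log2 fold change of -0.31 against -0.0075 over all genes. In edgeR no gene passed, as in all genes (0.00%), and none had an unadjusted p below 0.05, against 15.4% of all genes. DESeq2 likewise called none of the 47, against 3.11% of all genes. The lowest were Atp5a1 (-0.95 ± 0.64), Cox6a2 (-0.76 ± 1.23) and Sdhd (-0.49 ± 0.27; edgeR adjusted p = 0.403), and the highest Atp5g1 (0.58 ± 0.28; 0.351), Cox4i2 (0.22 ± 0.24) and Atp5g3 (-0.06 ± 0.17). Without obesity-prone replicate 3 the median was -0.04, with 33 genes below 0 and 14 above, and none passed (background 0.00%). Cox7a1 went from -0.25 to 0.08, Cox7a2 from -0.36 to -0.04, Cox8a from -0.21 to 0.01 and Cox8b from -0.30 to -0.0024. With all 3 obesity-prone libraries, 10 genes were lower with no overlap (Atp5c1, Atp5f1, Atp5k, Atp5mpl, Cox5b, Cyc1, Sdhb, Sdhd, Uqcrb and Uqcrh; 9.75% of all genes lower).

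Cox4i1, the widespread form of subunit 4, had a mean of 496 ± 43.6 CPM over the 4 control libraries (SD, n = 4), 412 ± 164 over the obesity-prone (n = 3) and 516 ± 22.7 over the obesity-resistant libraries (n = 3). Cyc1 had 497 ± 46.7, 360 ± 135 and 463 ± 8.64 CPM, and Cycs 152 ± 9.62, 110.5 ± 41.4 and 141 ± 11.1. Uqcrc1 had 724 ± 56.3, 594 ± 213 and 718 ± 0.766 CPM, and Uqcrfs1 311 ± 39.4, 235 ± 95.7 and 318 ± 17.2. In each of these 5 genes the SD of the obesity-prone group was the largest of the 3, and its lowest value was replicate 3. Cox7a2l, which is known for its part in joining complexes III and IV into supercomplexes, had 99.7 ± 10, 88.9 ± 22.2 and 101 ± 9.08 CPM. Cox4i2 had 1.91 ± 0.524, 1.92 ± 0.219 and 1.65 ± 0.119 CPM, and its obesity-prone replicate 3, at 1.71 CPM, was not the lowest of the 10 libraries.

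Of 7 other FPKM ratios between members formed within each library, 3 are given. They were chosen after their values were seen and carry no test. In the ratios not given, both diet groups overlapped control. The ratio of Sdha to Sdhb, the iron-sulfur subunit of complex II, was 0.908, 0.900, 0.941 and 0.996 in control, 1.18, 1.32 and 1.303 in the obesity-prone group and 1.15, 0.958 and 1.13 in the obesity-resistant group. The obesity-prone libraries, replicate 3 included, lay above all control libraries. The ratio of Atp5b to Atp5c1 was 6.54, 7.06, 7.37 and 8.16 in the control group, 9.70, 10.1 and 7.70 in obesity-prone libraries and 8.88, 8.92 and 9.57 in obesity-resistant ones. Cox7a1 over Cox8b was 0.271, 0.324, 0.307 and 0.329 in control, 0.399, 0.379 and 0.329 in the obesity-prone group and 0.345, 0.386 and 0.370 in the obesity-resistant group. In both of these pairs obesity-prone replicates 1 and 2 and the resistant libraries lay above all control libraries, and obesity-prone replicate 3 lay within the control range.

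Genes that build and serve these complexes were read from lists beside the 47. Of 39 assembly factors of complexes II to V, 2 fell in obesity-prone against control libraries, with a list median of -0.35. Of all genes 3.29% fell in this comparison, and the counts of this list and the next 3 lie near that share. Atpaf1, an assembly factor of the ATP synthase head, averaged 29.5 ± 3.47 CPM in control (SD, n = 4) and 18.6 ± 3.96 in obesity-prone libraries (n = 3), and fell with a log2 fold change of -0.66 ± 0.15 (edgeR adjusted p = 0.031, and 0.048 without obesity-prone replicate 3). Cox16, an assembly factor of complex IV, averaged 14.0 ± 1.22 and 10.6 ± 0.401 CPM and fell with a log2 fold change of -0.40 ± 0.09 (edgeR adjusted p = 0.038, and 0.070 without that library). Of 38 complex I genes 1 fell (Ndufc2, edgeR adjusted p = 0.047; list median -0.46), of 17 genes of the mitochondrial membranes and import 1 (Slc25a4, the ADP/ATP carrier of muscle and heart, 0.049; median -0.32), and of 13 genes of the tricarboxylic acid cycle none (median -0.35). Neither Ndufc2 nor Slc25a4 passed without obesity-prone replicate 3 (0.078 for both). In obesity-resistant against control libraries none of these 4 lists had a gene that passed.

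Among 20 nuclear regulators of respiratory chain genes the median in obesity-prone against control libraries was -0.0022, and 1 rose, where 3.71% of all genes did. Yy1, a zinc finger factor whose letters were searched above, had 44.2, 42.0, 44.3 and 44.3 CPM in the control group, 66.0, 64.7 and 58.0 in obesity-prone libraries and 55.1, 57.4 and 54.2 in obesity-resistant ones, with no overlap between control and either diet group. Of all genes, 9.66% were higher with no overlap in the obesity-prone and 10.5% in the obesity-resistant group. Its log2 fold change was 0.53 ± 0.07 in obesity-prone (edgeR adjusted p = 0.0092) and 0.35 ± 0.07 in obesity-resistant libraries (0.077, and 0.036 without obesity-prone replicate 3). Without that library Esrrb and Perm1 also passed as higher in obesity-resistant libraries (edgeR adjusted p = 0.030 and 0.046), where 0.854% of all genes did. Esrrb is an estrogen-related receptor, and Perm1 a muscle regulator induced by PGC-1 and estrogen-related receptors. The library left out is in neither group of this comparison, and with all 10 libraries none of the 20 regulators passed in it. Obesity-prone replicate 3, the lowest of the 10 for most of the 47 genes, lay above all control libraries for Yy1. The 20 regulators together did not follow Yy1. Their mean log2 deviation from the 10-library mean was -0.41 in that library, the lowest of the 10. In obesity-prone against obesity-resistant libraries 16 of the 20 had a log2 fold change below 0, with a median of -0.22.

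**Figure D5:**
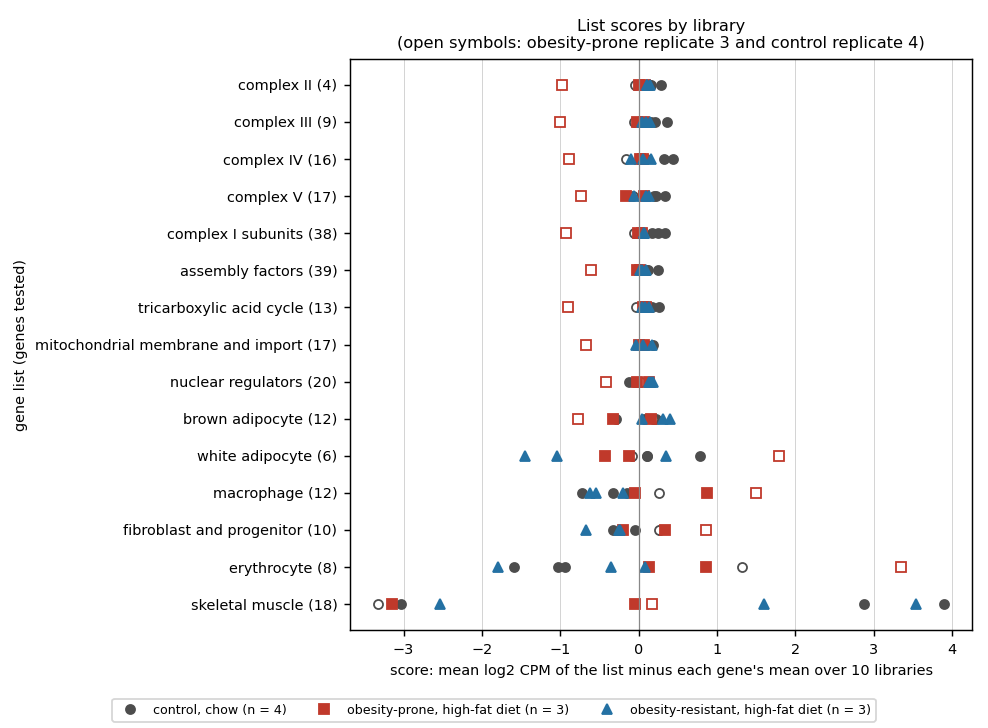
Score of each gene list in each library, the mean log2 CPM of its genes minus each gene's mean over 10 libraries; numbers of genes tested are in parentheses. Obesity-prone replicate 3 (open square) is lowest for complexes I to V and highest for white adipocyte, macrophage, fibroblast and erythrocyte genes.

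Markers of several other cell types also stood apart in obesity-prone replicate 3. In obesity-prone replicate 3 the list scores were -0.87 for the 47 genes, -0.78 for 12 brown adipocyte genes, 1.79 for 6 white adipocyte genes, 1.49 for 12 macrophage genes, 0.86 for 10 fibroblast genes and 3.34 for 8 erythrocyte genes. Summed macrophage markers were 383, 201 and 581 CPM in the obesity-prone group, against 137 to 247 in control and 140 to 170 in the resistant group, none of the 12 being at 0 in all libraries. In control replicate 4 the scores were -0.10 for the 47 genes, 0.18 for brown adipocyte genes and 1.32 for erythrocyte genes. Erythrocyte scores were -0.94 or lower in the other control libraries. Not all libraries followed such a pattern. Obesity-prone replicate 1 scored 0.87 for macrophage and 0.85 for erythrocyte genes, beside 0.02 for the 47 genes. Control replicate 1 scored -0.29 for brown adipocyte genes, beside 0.16 for the 47 genes. The part of these other cells in the levels of the 47 genes was not tested.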

How the data were processed

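Per the labels' protocols, Bowtie2 2.2.5 mapped the reads of total RNA to transcripts compiled by the sequencing company, and RSEM 1.2.12 estimated gene levels. HISAT2 2.0.4 and GRCm38.p6 stand in the submitters' processing notes. The expected counts deposited by the authors are not normalised, and 30.4% of them were not whole (tolerance 0.005). The FPKM values deposited by the authors are scaled to depth and transcript length. Strand, batch and annotation release are not given in the sources used here.

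Expected counts were rounded and fitted by the quasi-likelihood method of edgeR 4.0.16 (R 4.3.3, robust option), with 1 coefficient for each group, TMM factors and filterByExpr at a minimum count of 10. The 10 libraries left 7 residual degrees of freedom. Benjamini-Hochberg adjustment ran over the 19676 genes that passed the filter, and a gene changed, or was called, at an adjusted p below 0.05. Genes with only the company's own identifier and no name held 21.0% to 26.2% of counts and stayed in the fit. The 6 columns of the authors' group means were not used. Separate animals are not stated, so the p-values may reflect only technical spread within a group.

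Alternatives were DESeq2 1.42.0, other size factors and filters, limma 3.58.1 on log2(FPKM + 0.5, 0.1 or 1), fits of 2 groups, a muscle score covariate, the replicate number as a block and leaving out libraries. The complex I score as covariate was chosen after seeing the data. A list's score averages log2 CPM (prior count 2) over its genes after centring each gene on its 10-library mean. Deviations of libraries with the same number correlated weakly between obesity-resistant and control, at 0.149, 0.121 and 0.187. The fit with the replicate block is therefore described with that comparison. It was also run as an alternative in obesity-prone against control, where the correlations were -0.086, -0.104 and -0.146 and gave no such reason. In the other comparisons the correlations ran from -0.146 to 0.206. The main fit pairs no libraries in any comparison, and the labels do not link libraries of the same number. The fits and the ratio test were tested on simulated data. The fits were simulated with larger changes than most here and no library that stood apart. They therefore do not give the power of these results.

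The 47 genes, the lists and the isoform pairs were chosen with earlier results of these data known. Fold changes are named for the 3 highest and 3 lowest members of a comparison and the isoform genes, and levels for the subunit c genes and main catalytic subunits. Neither Cox7b2 nor Cox8c was among the genes that the rule found in the expression table.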

Additional observations from a re-analysis of the deposited data

How the results depend on the processing

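Of 30 log2 fold changes followed through 627 alternatives, 590 kept their direction and their side of the threshold, 31 turned in direction and 6 passed the threshold where all 10 libraries in edgeR did not (Cox6b2 and Uqcrb); none of the 31 was called. The count of called genes in obesity-prone against control was 0, and became 4 in DESeq2, 1 with the replicate block (Atp5g2), 12 without obesity-prone replicate 3 and control replicate 4, and 0 to 5 when leaving out 1 library. In obesity-resistant against control it was 0, and 8 without those 2 libraries. With the complex I score as covariate, added after seeing the data, the median went from -0.41 to 0.0053 in obesity-prone against control, from -0.31 to 0.015 in obesity-prone against obesity-resistant and from -0.14 to -0.0037 in obesity-resistant against control. The complex I score largely moved with the score of the 47 genes (-0.92 and -0.87 in obesity-prone replicate 3). The shift of these medians therefore shows only that both sets varied together. The 5 isoform ratios kept their call, with no adjusted p below 0.099. With the replicate block, no call changed in the comparisons other than obesity-prone against control; control replicate 4 shares its number with no other library and adds nothing there. In obesity-prone against control, the fold changes that turned were those of Atp5a1 (-0.29 with the replicate block, -0.15 in limma on log2(FPKM + 0.1), -0.031 without both libraries, -0.86 to 0.58 leaving out 1), Atp5g1 (-0.045 without both, -0.12 to 0.40 leaving out 1), Cox6a2 (0.40 with the muscle score), Cox7a1 (0.095 without both, -0.36 to 0.18), Cox7a2 (0.016 without both, -0.52 to 0.066) and Sdha (-0.061 with the replicate block, -0.18 to 0.27). In obesity-resistant against control they were Cox6a2 (0.12 in limma on log2(FPKM + 0.1), -1.78 to 0.56 leaving out 1) and Cox7a1 (-0.00089 with the replicate block). In obesity-prone against obesity-resistant they were Atp5g3 (0.065, 0.066 and 0.065 in limma with 0.5, 0.1 and 1 added, 0.084 without both, -0.17 to 0.091), Cox6a2 (0.93 with the muscle score, -1.25 to 0.32), Cox7a1 (0.077 without both, -0.46 to 0.084) and Cox8a (0.0018 without both, -0.39 to 0.0084). The cause of these shifts was not tested. Values of Cox6a2, Atp5a1, Cox6b2 and Cox4i2 rest on low counts, with levels near or below 2 CPM. The Atp5a1 entry is not taken as the level of that subunit.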
